A study of Homo sapiens with 9 samples.

Results

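The members described here are 194 mature miRNAs whose name carries a number of 4 digits from 3000 up, without miR-4454 and miR-4521, and whose counts summed to 50 or more over the 9 libraries. They come from 1436 mature names with such numbers, among the 2654 mature names of the table. The cells were Jurkat, clone E6-1, an established line of human T lymphoblasts that came from a T-cell leukaemia. Small RNA libraries were made from unactivated cells (0 h) and from cells activated for 5 h and 12 h with plate-bound antibody to CD3 and soluble antibody to CD28, with 3 biological replicates at each time. No unactivated culture was sampled at 5 h or 12 h, so activation and time in culture cannot be told apart. The members were chosen by their summed count, so their abundance is a description. The comparisons between times did not enter the choice directly. A low member can still reach 50 counts only through the time where it is high. Its difference between times is then also a description.

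miRNAs are short RNAs that guide Argonaute proteins to target transcripts, mainly through the seed, bases 2 to 8 of the mature strand. The reference catalogue numbers them in the order of their registration, so high numbers belong mostly to entries found by deep sequencing, many of them from few reads. Most miRNA hairpins are cut from a longer transcript by Drosha and then by Dicer. In a mirtron one or both ends of the hairpin are instead made by the splicing of an intron. Fragments of other structured RNAs, such as small nucleolar RNAs, can also be registered as miRNAs.

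The mature sequences of the most abundant members, and of those whose levels are described below, came from RefSeq (GRCh38.p14), which held 172 of the 194. The capitals mark the seed. The first set holds the members with the highest levels.
miR-4449: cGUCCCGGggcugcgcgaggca
miR-3615: uCUCUCGGcuccucgcggcuc
miR-7706: uGAAGCGCcugugcucugccgaga
miR-3200-5p: aAUCUGAGaaggcgcacaaggu
miR-3179: aGAAGGGGugaaauuuaaacgu
miR-3202: uGGAAGGGagaagagcuuuaau
miR-4787-3p: gAUGCGCCgcccacugccccgcgc

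The second set holds members with the smallest p-values between times.
miR-6125: gCGGAAGGcggagcggcgga
miR-3651: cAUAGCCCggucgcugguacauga
miR-4677-3p: uCUGUGAGaccaaagaacuacu
miR-6769a-5p: aGGUGGGUauggaggagcccu
miR-6785-5p: uGGGAGGGcguggaugauggug
miR-6889-5p: uCGGGGAGucugggguccggaau
miR-6824-5p: gUAGGGGAgguugggccaggga

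The last set sets the one member with the seed of the miR-15 and miR-16 family, miR-6838-5p, beside miR-16-5p.
miR-6838-5p: aAGCAGCAguggcaagacuccu
miR-16-5p: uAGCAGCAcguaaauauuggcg

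Levels are given as raw counts or as CPM, counts per 1000000 of a library's counts after TMM scaling. The table held 6631839 to 16207031 counts for each library, with 0 h replicate 3 and 12 h replicate 3 the shallowest. A count of 3 came to 0.176 CPM where depth was highest and to 0.471 CPM where it was lowest. The labels were checked on miR-132-3p, a miRNA known to rise on T cell activation: its level was 442 ± 39.9 CPM at 0 h and 3192 ± 295 at 5 h (SD of 3 libraries), a log2 fold change of 2.85 with an adjusted p of 3.19e-12 in edgeR. Of 4 lymphoid miRNAs, miR-181a-5p lay between 25491 and 41682 CPM, miR-142-3p between 7425 and 10981, miR-150-5p between 230.1 and 280.4, and miR-155-5p between 0.579 and 12.7. Of 8 miRNAs known from other tissues, miR-124-3p, miR-1-3p and miR-133a-3p were at 0 in all 9 libraries. The other 5 had counts: miR-223-3p (106 to 157 CPM), miR-200c-3p (66.3 to 127), miR-122-5p (0 to 66.8), miR-451a (1.26 to 9.71) and miR-375-3p (0 to 1.53).

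Most late-numbered entries had no reads in these cells. Of the 1436 mature names, 973 were at 0 in every library, 269 had a summed count of 1 to 49, and 194 (13.5%) were members. Among 1159 older entries (numbers under 3000 and let-7), 624 (53.8%) had reads and 452 (39.0%) reached 50. The share that reached 50 was 24.9% for numbers in the 3000s (69 of 277), 12.1% in the 4000s (60 of 496), 12.3% in the 5000s (14 of 114), 10.5% in the 6000s (45 of 427) and 8.57% in the 7000s (6 of 70). None of the 39 names in the 8000s or the 13 in the 9000s reached it. The members' median summed count was 131, against 1212 for the 452 older entries. Of the members, 131 had fewer than 200 counts, 53 had from 200 to just under 1000, and 10 had 1000 or more.

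All members together held a small share of the counts. Their share of the counts, with each mature name taken once, was 0.106% ± 0.0132 in unactivated cells, 0.101% ± 0.0120 after 5 h and 0.111% ± 0.00924 after 12 h (SD, n = 3 each). The libraries ranged from 0.0893% to 0.118%, and the 3 times overlapped. Exact two-sided permutation tests gave p = 0.7 for 5 h against 0 h, p = 0.6 for 12 h against 0 h and p = 0.5 for 12 h against 5 h, where 3 libraries against 3 cannot go below 0.1. The 2 most abundant members held 21.9% of the 69284 member counts, and the first 15 held 53.4%.

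The most abundant member was miR-4449, whose hairpin lies in an intron of DANCR, a long noncoding RNA (chr4:52712682-52712747, plus strand, GRCh38). Its levels were 119, 63.5 and 124 CPM at 0 h, 75.5, 61.7 and 61.7 CPM at 5 h, and 66.6, 85.4 and 140 CPM at 12 h. The 5 h libraries were close together at the low end, 1 inside and 2 just below the range of the other times: the log2 fold change from 0 h to 5 h was -0.62 (SE 0.27, edgeR adjusted p = 0.695).

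miR-3609 was next. Its hairpin lies in an intron of TRRAP, an adaptor of histone acetyltransferase complexes (chr7:98881650-98881729, plus strand), and the entry is on the list of those that may be pieces of a structured RNA, although no structured RNA is annotated at this place. Its levels were 44.0, 48.0 and 55 CPM at 0 h, 59.4, 84.5 and 50.8 CPM at 5 h, and 72.8, 87.5 and 66.2 CPM at 12 h. All 3 libraries at 12 h were above all 3 at 0 h, and the 5 h libraries overlapped both. The means were 49 ± 5.57, 64.9 ± 17.5 and 75.5 ± 10.9 CPM, and the log2 fold change from 0 h to 12 h was 0.63 (SE 0.22), with an edgeR adjusted p of 0.511 that misses the threshold.

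The next 4 members lay near 30 CPM or a little lower. miR-3615, in the untranslated region of SLC9A3R1, which encodes a membrane scaffold protein (chr17:74748613-74748699, plus strand), had 34.6 ± 10.9, 39.7 ± 10.0 and 30.4 ± 3.28 CPM at 0, 5 and 12 h. miR-7706, in the untranslated region of AKAP13, which encodes a kinase anchoring protein (chr15:85380596-85380662, plus strand), had 30.7 ± 16.2, 23.5 ± 4.50 and 35.3 ± 3.70 CPM. miR-3667-5p, in an intron of C22orf34 (chr22:49543393-49543466, minus strand), had 30.1 ± 1.92, 28.4 ± 3.68 and 29.9 ± 9.84 CPM. It varied least of the 6 leading members over all 9 libraries, with a coefficient of variation of 18.3%. miR-3200-5p, in an intron of OSBP2, an oxysterol-binding protein (chr22:30731557-30731641, plus strand), had 26.9 ± 10.3, 16.4 ± 3.28 and 26.2 ± 13.7 CPM. Over the 9 libraries their means were 34.9 ± 8.59, 29.8 ± 10.0, 29.5 ± 5.4 and 23.2 ± 10.1 CPM (SD), so that the values of neighbours in this order overlapped.

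**Figure D1:**
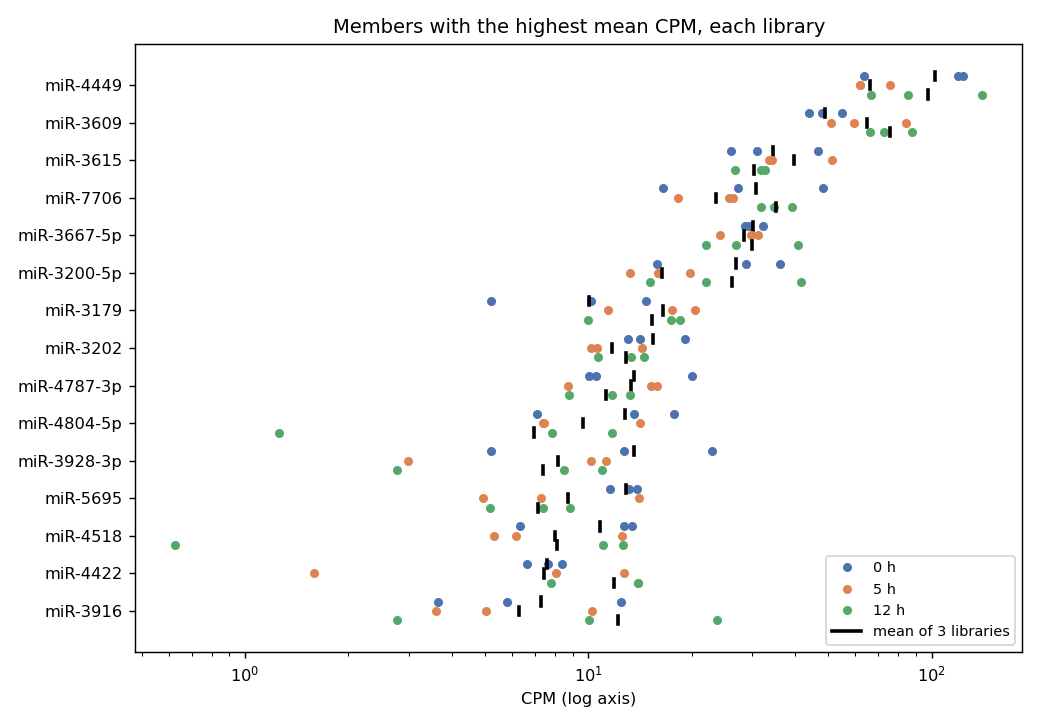
CPM (log axis) of the 15 members with the highest mean CPM; each point is 1 library, coloured by time, and each black bar is the mean of the 3 libraries of that time. The times overlap for most members; all 12 h points of miR-3609 lie to the right of its 0 h points, and miR-4804-5p and miR-4518 each have 1 library at 12 h far to the left.

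The other 9 of the first 15 had mean levels from 8.59 CPM (miR-3916) to 13.9 CPM (miR-3179). miR-3179 was repeated with the same count on 4 precursor rows, of which the one used here lies on chr16:14901508-14901591. miR-4518 lies in an intron of ITGAL, which encodes the alpha subunit of the leukocyte integrin LFA-1 (chr16:30503919-30504001, plus strand). Its levels at 12 h were 11.1, 12.7 and 0.628 CPM, so the low value came from replicate 3 alone. miR-4804-5p, in an intron of the nuclear import receptor gene TNPO1 (chr5:72878591-72878663, plus strand), was also low in that shallow library, with 1.26 CPM against 7.84 and 11.7 CPM in the others at 12 h. miR-3928-3p (22.9 CPM at most, 2.76 at least) and miR-3916 (23.7 and 2.76) had coefficients of variation of 63.2% and 77.2%.

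A few hosts of less abundant members are genes of T cell signalling or of miRNA processing itself. miR-3194-5p lies in an intron of NFATC2, a transcription factor switched on by calcium signals in activated T cells (chr20:51452905-51452977, minus strand). It had 3.86, 4.66 and 1.98 CPM at 0 h, 3.83, 4.62 and 4.17 CPM at 5 h, and 4.86, 4.13 and 5.65 CPM at 12 h. Its 3 times overlapped. miR-3173-3p lies in an intron of DICER1, the gene of the Dicer nuclease (chr14:95137919-95137986, minus strand). It had 7.61 ± 3.01, 7.86 ± 3.00 and 9.51 ± 7.37 CPM. These 2 members were picked for their hosts after the values were seen.

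Few members were found in every library. Only 53 of 194 (27.3%) had a count above 0 in all 9 libraries, against 319 of 452 older entries (70.6%). Within classes of equal total count the groups were much closer. Under 200 counts, 4 of 131 members (3.05%) and 6.54% of the older entries were in all 9 libraries. From 200 to under 1000 counts the shares were 73.6% and 71.4%, and at 1000 or more they were 10 of 10 members and 99.6% of the older entries. In the lowest class, 36.4% of the members' values and 36.0% of the older entries' values were 0. These shares are descriptions, since the summed count chose the members.

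**Figure D2:**
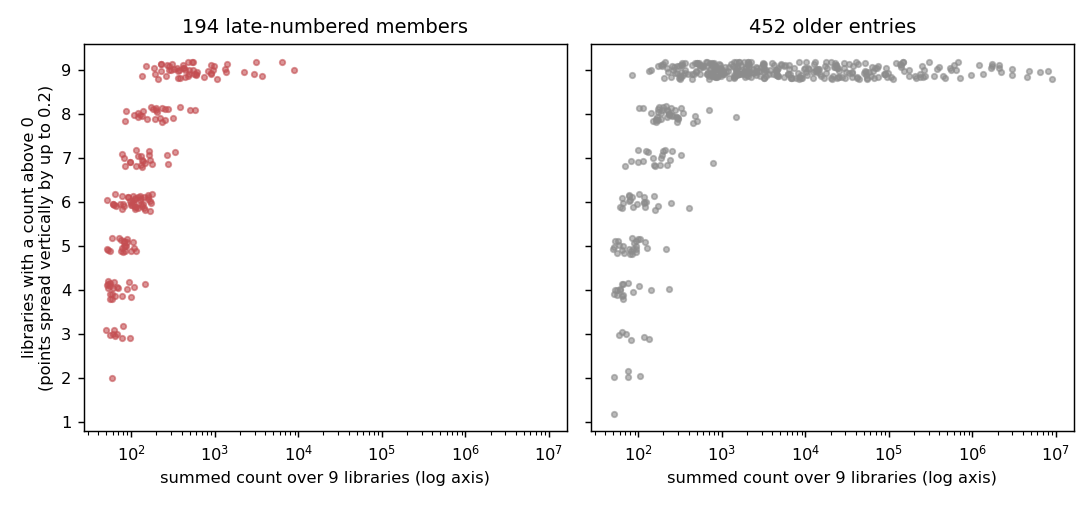
Number of libraries with a count above 0 (vertical, points spread by up to 0.2) against the summed count over 9 libraries (log axis) for the 194 members on the left and the 452 older entries on the right; each point is 1 mature name. Members sit at the low end of the totals, and in both panels entries under 200 counts are missing from some libraries.

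The zeros came in blocks: a member could have many counts in one library and 0 in its replicate. Among members under 200 counts there were 63 pairs of replicates of a time with 20 counts or more in each, and beside 21 of these pairs (33.3%) the remaining library of that time had 0. For older entries of that class it was 20 of 51 (39.2%). miR-4435 had 67 of its 79 counts in 0 h replicate 1, and miR-6771-5p had 53 of its 67 in 5 h replicate 1. In all, 10 members had over 50% of their counts in 1 library, all in the class under 200 counts (7.63% of that class, against 17.8% of the older entries). Near the threshold, miR-4796-3p (51 counts), miR-6886-5p (51) and miR-6824-5p (50) were just inside, and miR-3198 (49), miR-4755-5p (49) and miR-6812-5p (48) just outside. miR-4755-5p had 40 of its counts in 1 library.

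More members were detected at 5 h than at the other times. The number with a count above 0 was 143, 147 and 133 at 0 h, 156, 149 and 157 at 5 h, and 145, 143 and 127 at 12 h. The 5 h libraries thus did not overlap the others, with means of 141 ± 7.21, 154 ± 4.36 and 138 ± 9.87 (SD of 3 libraries). The number can also move with depth, so its expected value at the depth of the shallowest library was also computed. This was 132.8 to 146.4 at 0 h, 147.8 to 155.3 at 5 h and 127 to 143.3 at 12 h. The calculation takes reads as independent, whereas the zeros came in blocks, so it cannot account for depth. At 43.3% of its depth, 0 h replicate 1 went only from 143 to 142.5. The shallowest libraries, 0 h replicate 3 and 12 h replicate 3, stayed lowest, with 132.8 and 127, and 5 h had no library as shallow. On the other side, 5 h replicates 1 and 2 had 156 and 149 members above 0 in 10376448 and 10071972 counts. Replicates 1 and 2 of 0 h were deeper (15121491 and 13417648 counts) but had 143 and 147. Those of 12 h were also deeper (12620236 and 11798947 counts) and had 145 and 143. Whether depth made the difference was not tested. Exact two-sided permutation tests gave p = 0.1 for 5 h against 0 h and for 12 h against 5 h, the smallest value that 3 against 3 allows (0.225 after adjustment over 9 tests). Among the older entries the detected number was 384 to 409 at 0 h, 407 to 437 at 5 h and 396 to 419 at 12 h, also highest at 5 h but with ranges that overlapped.

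No member passed the test in any comparison. Of 194 members, 179 passed the filter on low counts and were tested in edgeR over all 701 rows of the table that passed. At an adjusted p of 0.05, 0 of the 179 were called at 5 h against 0 h, where 1.57% of all tested rows were called. Likewise 0 were called at 12 h against 0 h (1.43% of all rows), 0 at 12 h against 5 h (0.571%) and 0 when any difference among the times was tested (1.71%). At an unadjusted p of 0.05, edgeR gave 6 of the members at 5 h against 0 h (3.35%, where 5.99% of all rows passed). Of these 2 were higher (all rows 3.85%) and 4 lower (all rows 2.14%). At 12 h against 0 h it gave 9 (5.03%, all rows 7.28%), 5 of them higher (all rows 4.42%) and 4 lower (all rows 2.85%). At 12 h against 5 h it gave 4 (2.23%, all rows 6.13%), 1 higher (all rows 2.85%) and 3 lower (all rows 3.28%). For any difference it gave 4 (2.23%, all rows 5.28%). DESeq2 called 1 member, miR-6125, at 5 h against 0 h. The 5 h and 12 h comparisons share the 0 h libraries.

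The members' fold changes were centred near 0. The median log2 fold change was 0.03 at 5 h against 0 h (all rows 0.03), -0.00 at 12 h against 0 h (all rows 0.01) and -0.04 at 12 h against 5 h (all rows -0.03). Positive and negative values were 92 and 87, 89 and 90, and 86 and 92. Members whose 3 libraries of one time lay wholly above or below the 3 of the other numbered 16 at 5 h (8.94%, where 10.8% of all rows did so), 17 at 12 h (9.50% against 12.1%) and 23 at 12 h against 5 h (12.8% against 12.8%). The standard errors set what could be seen: for 5 h against 0 h the median SE was 2.17 for members under 200 counts, 0.873 from there to under 1000 and 0.341 for 1000 or more. Older entries had 2.10, 0.815 and 0.20 in the same classes.

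**Figure D3:**
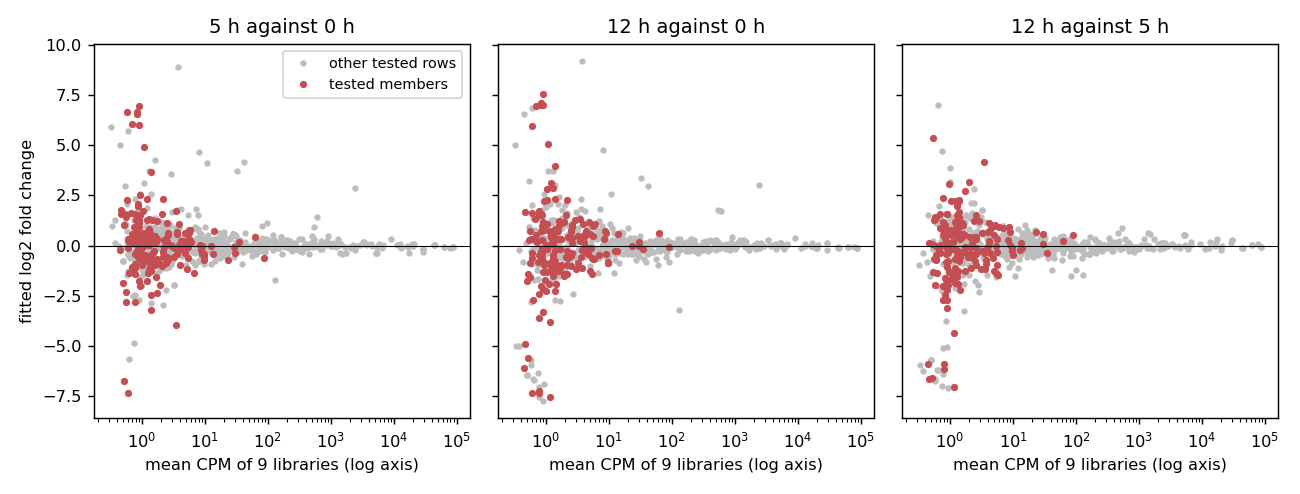
Fitted log2 fold change (vertical) against mean CPM of the 9 libraries (log axis) for the 3 comparisons; red points are the 179 tested members and grey points the other 522 tested rows. Members lie at low CPM, where the values scatter widely around 0 and reach beyond 7 in size for entries at 0 in a whole time; none of the red points passed the threshold.

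miR-6125 had the smallest p-value of the members. Its precursor overlaps a coding exon of USP15, a deubiquitinase gene, on chr12:62260359-62260454 (plus strand). Its counts were 33, 70 and 43 at 0 h, 0, 9 and 0 at 5 h, and 105, 42 and 31 at 12 h. The 5 h libraries were all below those of both other times, with means of 4.68 ± 2.29, 0.308 ± 0.533 and 5.42 ± 2.20 CPM. The log2 fold change was -3.96 (SE 1.26, edgeR adjusted p = 0.253) from 0 h to 5 h and 4.18 (SE 1.27, adjusted p = 0.414) from 5 h to 12 h. Without 5 h replicate 2, the one 5 h library with counts, the values were -8.81 and 9.0 and both passed in edgeR (adjusted p = 0.00152 and 0.00232). Both also passed with no filter (0.0382 and 0.0220), and the first with DESeq2 (0.0496). Over all alternatives the adjusted p ranged from 0.00152 to 0.621 and from 0.00232 to 0.877.

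miR-3651 overlaps SNORA84, a small nucleolar RNA of the class that guides pseudouridylation, within an intron of IARS (chr9:92292458-92292547, minus strand). Its levels were 16.3, 5.28 and 7.62 CPM at 0 h, 4.01, 2.36 and 5.05 CPM at 5 h, and 7.10, 6.75 and 7.06 CPM at 12 h. The 5 h libraries were all below the 0 h libraries, with a log2 fold change of -1.35 (SE 0.55, edgeR adjusted p = 0.694). The size rested partly on 0 h replicate 1: without it the log2 fold change was -0.71.

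Several low members were at 0 in a whole time. In all, 18 of 194 members had no count in any of the 3 libraries of at least 1 time. All of them were under 200 counts, where 36.4% of the members' values and 36.0% of the older entries' values were 0. The same number was not taken for older entries or all rows, so it is not a trait particular to the members. miR-6824-5p, from an intron end of the anion exchanger gene SLC26A6 (chr3:48633636-48633698, minus strand), had 13, 15 and 22 counts at 0 h and 0 in all 6 activated libraries. All 50 of its counts came from 0 h, so it is a member through that time alone and its differences are descriptions. Its 0 h mean was 22.2 times a floor of 3 counts over the 5 h group and 18.7 times that of the 12 h group. Such a floor stands for counting error alone, and zeros came in blocks, so these ratios are no lower bounds on a change. The fitted log2 fold change was -7.37 at 5 h (SE 3.18, edgeR adjusted p = 0.695) and -7.37 at 12 h (SE 3.25, adjusted p = 0.661). miR-4677-3p, in an intron of the centrosomal gene SDCCAG8 (chr1:243346176-243346255, plus strand), had 0 counts at 0 h, 13, 0 and 14 at 5 h, and 18, 32 and 13 at 12 h. Its 12 h mean was 23.8 times the floor of the 0 h group, with a log2 fold change of 7.56 (SE 2.83, edgeR adjusted p = 0.556). It too reached 50 counts only through its high time, with 63 of its 90 counts at 12 h.

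miR-6889-5p, from the Ran GTPase activator gene RANGAP1 (chr22:41252992-41253050, minus strand), had 18, 27 and 13 counts at 0 h and 0 in the 3 libraries at 12 h. Its 0 h mean was 18.3 times the floor of the 12 h group, with a log2 fold change of -7.34 (SE 3.11, edgeR adjusted p = 0.661). miR-6785-5p, from TMEM94 (chr17:75498548-75498628, plus strand), had 30, 22 and 8 counts at 0 h and 0 at 12 h. Its 0 h mean was 17 times that floor, with a log2 fold change of -7.23 (SE 2.94, edgeR adjusted p = 0.661). The 5 h libraries of both held 0 to 32 counts. Both reached 50 counts only through 0 h, which held 58 of 90 counts of miR-6889-5p and 60 of 87 of miR-6785-5p. miR-6769a-5p, from an intron end of the ubiquitin ligase gene MGRN1 (chr16:4671318-4671390, plus strand), had 0, 5 and 0 counts at 0 h, 26, 22 and 14 at 5 h, and 24, 17 and 23 at 12 h. Its log2 fold change at 12 h was 3.98 (SE 1.81, edgeR adjusted p = 0.661), and 7.69 without 0 h replicate 2, the one 0 h library with counts. miR-3188 and miR-6735-5p also had an unadjusted p under 0.05 in 2 comparisons, with groups that overlapped.

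**Figure D4:**
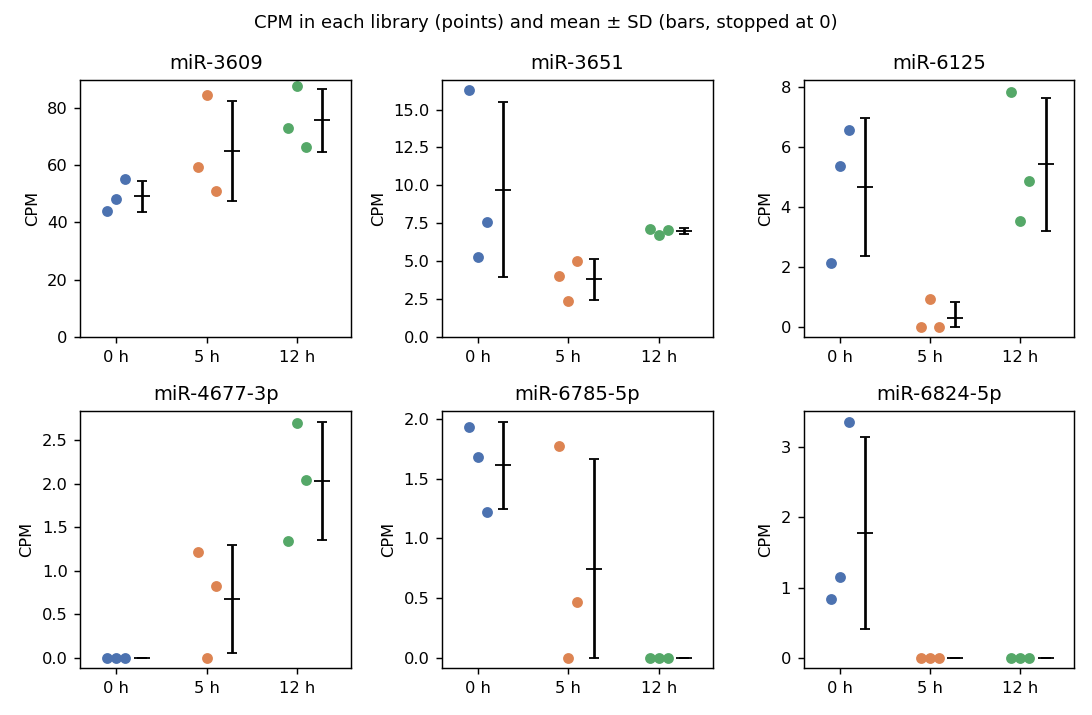
CPM of 6 members in each library (points) at 0, 5 and 12 h, with the mean and SD of 3 libraries beside them (bars stopped at 0). miR-6125 is near 0 only at 5 h, miR-4677-3p is at 0 in all 0 h libraries, miR-6785-5p in all 12 h libraries and miR-6824-5p in all activated libraries.

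A large set of members came from hairpins that end where an intron ends. Of the 176 member precursors, 105 lay in introns, 40 overlapped an exon of some annotated transcript and 31 had no host gene on their strand (GENCODE 29). Of these 31, 15 lay opposite an annotated gene and 16 had none on either strand. For 52 precursors the 3′ end of the hairpin was within 5 bases of the 3′ end of an intron of the host, and for 50 of these it was the same base. All 40 member precursors with names from miR-6715 to miR-6895 ended exactly at an intron's 3′ end, against 10 of the other 136. This range had been listed as a block of mirtrons, so the contrast describes the catalogue and is not a result of these cells. In 3 of the 40 the 5′ end was also within 5 bases of the start of the intron, and in 2 of these it was the same base. In the 40, the median distance from the intron's 5′ end was 175.5 bases, and the highest was 9885. Of the 35 hairpins of that block with a sequence, 35 ended in AG, the bases at which introns end, which follows from their position. Among the others 16 of 111 did (14.4%). The other 136 precursors include 12 that also end within 5 bases of an intron's 3′ end.

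Examples are the hairpins of miR-6777, from an intron of the sterol regulator gene SREBF1 (chr17:17813480-17813545, minus strand), and of miR-6885, from GTF2F1, a subunit of a general transcription factor (chr19:6389638-6389703, minus strand). The capitals mark the mature 5p strand, and both hairpins end in ag.
miR-6777: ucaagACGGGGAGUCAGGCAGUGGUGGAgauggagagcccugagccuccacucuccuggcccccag
miR-6885: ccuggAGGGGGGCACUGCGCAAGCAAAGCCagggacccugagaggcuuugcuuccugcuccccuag

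Every member from these 52 precursors was the 5p strand, the one away from the intron's 3′ end. The 5p entries of the 52 precursors summed to 8232 counts, and their 52 3p entries to 50 counts. Only 5 of the 3p entries had any count, and the highest was 29, for that of miR-6804. The members from the other 124 precursors were 42 of the 5p arm, 43 of the 3p arm and 57 with no arm in the name. Over all entries from miR-6715 to miR-6895, members or not, 101 of 175 5p entries had reads (7678 counts), and 17 of 174 3p entries (210 counts). The median share of G was 50% in the 5p and 15% in the 3p entries with a sequence.

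**Figure D5:**
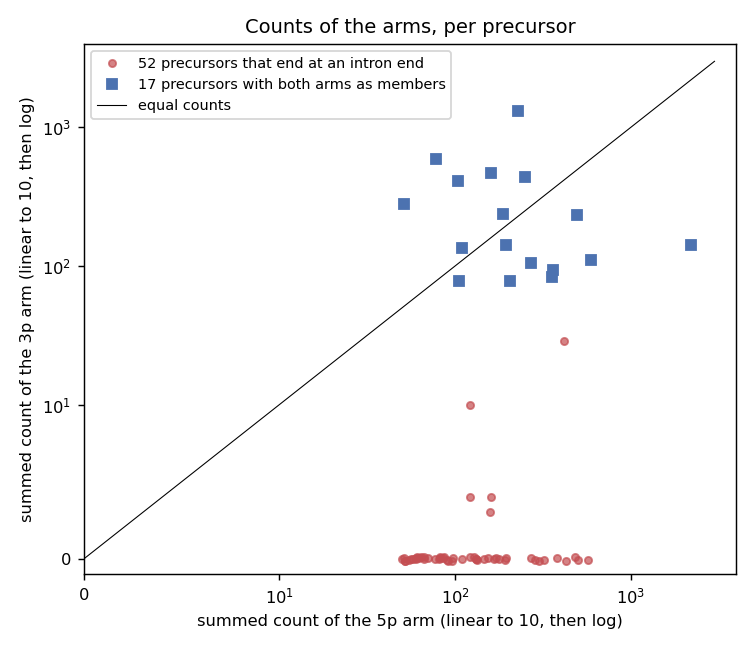
Summed count of the 3p arm against that of the 5p arm per precursor (both axes linear to 10, then log); circles are the 52 precursors that end at an intron end, squares the 17 precursors with both arms among the members, and the line marks equal counts. The circles lie at or near 0 on the 3p axis (points at 0 are spread slightly). The squares lie on both sides of the line. They were chosen for having both arms among the members, so they cannot lie near 0 on either axis. The remaining precursors are not drawn, so the squares are no comparison set for the circles.

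The levels of this block overlapped between the times. The summed level of its 40 members was 62.7 ± 4.48, 63.0 ± 19.4 and 63.2 ± 14.4 CPM at the 3 times. Its most abundant members were miR-6734-5p, from ELOVL1, a fatty acid elongase gene (569 counts), miR-6885-5p (501) and miR-6777-5p (481). miR-6777-5p had 5.59, 5.35 and 8.68 CPM at 0 h, 6.35, 1.64 and 0.880 CPM at 5 h, and 2.32, 6.92 and 8.63 CPM at 12 h, with overlapping times.

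In the 17 precursors with both arms among the members, the 5p arm was higher in 9 and the 3p arm in 8, with a median ratio of 2.95. In 5 the ratio was above 5. miR-3200 had 2214 counts of the 5p and 143 of the 3p arm (15.5-fold), miR-3613, from an intron of the noncoding gene DLEU2, had 590 of the 3p and 78 of the 5p (7.56-fold), and miR-4787 had 1311 of the 3p and 228 of the 5p (5.75-fold). miR-3187 (5.53-fold, 3p) and miR-3605 (5.33-fold, 5p) followed. The leading arm was higher in all 9 libraries for 5 precursors: miR-3200, miR-3613, miR-4787, miR-3605 and miR-4766. At the other end, miR-4661 (134 and 110 counts), miR-4687 (236 and 187), miR-6516 (105 and 78), miR-4707 (196 and 142) and miR-3074 (437 and 250) were within 2-fold.

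miR-3074 lies opposite miR-24-1, and miR-3065 and miR-3120 lie opposite miR-338 and miR-214. The 5 members of these antisense precursors summed to 14.4 ± 6.58, 10.3 ± 5.24 and 10.9 ± 4.43 CPM at 0, 5 and 12 h, with ranges that overlapped. The entries on the structured RNA list or with an annotated overlap were miR-3609 (on the list, no overlap), miR-3651 and both arms of miR-6516, whose hairpin overlaps SCARNA16, a small Cajal body RNA (chr17:77089417-77089497, plus strand). Their sum was 60.4 ± 4.12, 70.2 ± 15.8 and 84.5 ± 11.4 CPM at 0, 5 and 12 h, most of it miR-3609. These levels were not tested as groups.

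The members were richer in G than older entries. Over the 172 members and 397 older entries with a sequence, the median GC content was 56.5% against 47.8% and the median share of G 36.4% against 27.3%. A run of 4 or more G was present in 39 members (22.7%) and in 29 older entries (7.30%). The members from intron ends had a median share of 47.6% G, and the other members 32.6%. A first base U was found in 42.4% of members and 37.3% of older entries, and a length of 21 to 23 bases in 83.1% and 89.4%. An exact match in an annotated transcript other than a miRNA was found for 38 members (22.1%) and 105 older entries (26.4%).

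Members rarely shared a seed with one another or with an abundant miRNA. The 172 sequences held 165 distinct seeds, 7 of them shared by 2 members, as by miR-3916 and miR-6859-5p or by miR-3173-3p and miR-6891-5p. miR-3180 and miR-3180-3p, which also shared a seed, agreed over 19 bases and had the same 225 counts, so their reads could not be told apart. Only 3 members had the seed of an older entry with 50 or more counts. They were miR-6838-5p (154 counts, against 6566943 for the 6 entries of the miR-15 and miR-16 family), miR-3619-5p (113, against 76 for miR-214-3p) and miR-3187-5p (51, against 1865 for miR-1285-3p). Among the members and older entries with a sequence, no member was within 2 mismatches of an older entry with reads.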

How the data were processed

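Small RNA libraries of 9 Jurkat cultures were compared. Per the labels, RNA was extracted with a Direct-zol kit and libraries made with RealSeq kits; the submitters' processing notes name GRCh38.p13 and DESeq2. For the aligner and the counter, no name is given in the sources used here. The authors deposited raw counts, 1 row per pair of precursor and mature miRNA (2883 rows), and log2 normalised values, used here only in an alternative. Of a mature name with several rows (14 members) the row with the highest total was used; repeated rows stay in CPM totals.

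The whole table was fitted in edgeR 4.0.16 (R 4.3.3): filterByExpr (minimum count 10, minimum total 15; 701 of 1214 rows above 0), TMM, quasi-likelihood test with 1 mean per time over all 9 libraries, Benjamini-Hochberg adjustment over the 701 rows, threshold 0.05. The common biological coefficient of variation was 77.0%. DESeq2 1.42.0 and limma 3.58.1 were alternatives. The pipeline was tested on simulated data for 5 h against 0 h. The simulated counts were filtered again, which left 612 rows, and changed rows lost to that filter are not counted here. The pipeline called 18 of 64 changed rows at 2-fold, 29 of 52 at 4-fold and 36 of 55 at 8-fold. Of the changed members it called only 4 of 13, 3 of 17 and 4 of 13, so most were missed. Among 441 unchanged rows, 1 was called. SE is the log2 fold change over the root of its F. No 2 replicates agreed within sampling noise (chi-square over degrees of freedom 70.4 or more). Floors of 3 counts stand for counting error alone: without molecular identifiers, reads may be copies of 1 molecule. Mature positions and sequences came from RefSeq (GRCh38.p14), hosts and introns from GENCODE 29, and 34 positions from GENCODE alone. The members and lists were chosen with earlier results of these data known, and the structured RNA list came from general knowledge. Named were the 15 members with the highest mean CPM, those with the smallest p and groups apart, precursors with both arms, listed structured RNA entries, seeds shared with older entries and entries at the threshold; other examples were picked after their values were seen. The columns all belong to samples of this series.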

Additional observations from a re-analysis of the deposited data

How the results depend on the processing

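No member was called by edgeR in any comparison as fitted. The call of miR-6125 depended on the setting. At 5 h against 0 h, 1 member (miR-6125) was called with no filter, with DESeq2 and with the replicate number as a block. At 12 h against 5 h and in the test of any difference, 1 member (again miR-6125) was called with no filter and with the block. Leaving out 1 library at a time gave 0 to 1 called members in each of these 3 comparisons and 0 in 12 h against 0 h; the 1 came without 5 h replicate 2. With the block the adjusted p of miR-6125 in edgeR was 0.0281 at 5 h against 0 h and 0.0169 at 12 h against 5 h. The block changed no other member's call. Deviations of same-numbered libraries correlated between -0.03 and 0.06, so no pairing by number was seen. With a common biological coefficient of variation of 77.0%, such values cannot exclude a pairing. The stricter filter left 16 members to test and the deposited log2 values 53, so these say little of the rest. The members' share of counts with a total of 200 or more was 0.0854% at 0 h, 0.0806% at 5 h and 0.0897% at 12 h. Over every precursor row it was 0.0749%, 0.0744% and 0.0808%. Without entries of structured RNAs it was 0.0968%, 0.0902% and 0.0973%. Without 1 library it ranged from 0.101% to 0.113% at 0 h, 0.0953% to 0.107% at 5 h and 0.107% to 0.116% at 12 h. Members detected per library were 61, 61.3 and 61 with a total of 200 or more, so the higher number at 5 h came from members under 200 counts. Without 1 library the detected number ranged from 138 to 145 at 0 h, 152.5 to 156.5 at 5 h and 135 to 144 at 12 h. Among all tested rows, the called number at 5 h against 0 h was 11, and 17 with no filter. At 12 h against 0 h it was 10, and 6 with only the 2 groups fitted. At 12 h against 5 h it was 4, and 12 with no filter, 11 with the block and 10 without 12 h replicate 1. For any difference it was 12, and 21 with no filter, 21 with the block and 7 without 12 h replicate 2. For members under 200 counts, depth and replicate spread allow only large differences to be seen.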

Other observations

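Below the threshold of 50, 269 late-numbered entries had 1 to 49 counts over the 9 libraries. Their counts summed to 4886, with a median of 17 per entry. Of these entries, 141 had counts in 1 library only, 77 in 2 libraries and 6 in 5 or more. The most frequent host chromosome of the member precursors was chromosome 1 with 21 of 176, followed by chromosome 19 with 16. KDM5C, a histone demethylase gene, was the one host with 2 member precursors.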
